A study of Homo sapiens with 4 samples.

Results

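The cytosolic ribosomal protein genes were examined in HCT116, a human colorectal carcinoma cell line, after transfection of small interfering RNA (siRNA) for 48 h. The members were the protein-coding genes whose GENCODE symbol begins with RPL or RPS followed by a number, together with RPLP0, RPLP1, RPLP2 and RPSA, and without the ribosomal protein kinases (RPS6K genes) and RPS19BP1. This rule gave 90 genes among 58735 gene identifiers. They were 46 genes for core proteins of the large (60S) subunit and 31 genes for core proteins of the small (40S) subunit. The others were 10 paralogs, whose proteins resemble a core protein, and 3 readthrough genes that join a member to its neighbour. Cells given control siRNA provided 2 libraries and those labelled KIF26B siRNA provided another 2, numbered 1 and 2 in both groups, and the labels name no further treatment. KIF26B encodes a kinesin family protein, and the comparison asks which transcripts differ after its siRNA. The study describes more than 1 siRNA against KIF26B and the labels do not say which was used in which library. The study states in general that experiments were repeated as biological replicates. The labels do not say whether these 2 libraries a group came from separate cultures. The p-values therefore measure no spread beyond that between these libraries. In addition, limma draws the variance of each gene toward a value shared by all genes tested.

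A ribosome has a small subunit, which reads the mRNA, and a large subunit, which joins amino acids. Each core protein is present in a single copy in the ribosome, except for the paired stalk proteins RPLP1 and RPLP2, so cells make the proteins in similar amounts from transcripts that are among the most abundant in a growing cell. Most of these transcripts begin with a run of pyrimidines (C or T in the gene), the terminal oligopyrimidine or TOP motif, through which the kinase complex mTORC1 and the protein LARP1 control their translation. Growing tumor cells, colorectal cancer lines among them, depend on high ribosome production. Free RPL5 and RPL11 bind MDM2, the ligase that degrades p53, when ribosome assembly is disturbed.

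The start sites are shown first, because the TOP motif is the sequence feature by which this gene family is known. RefSeq start sites (GRCh38.p14) were matched by symbol for 72 of the 90 genes, and 18 were not matched, among them RPL3L, RPL5, RPL7, RPL8, RPL23, RPL23A, RPL30, RPL37, RPL39L, RPS2, RPS10-NUDT3, RPS15A and RPS20. Each line gives the 15 bases before the start followed by the first 15 transcribed bases, 5′ to 3′ on the gene's strand. Capitals mark the longest run of C and T that lies within 5 bases of the start. The first set holds abundant members and members that are described below for their differences.
RPS12, chr6:132814554-132814583, plus strand: gcgtgcggatgaggCCTCTTTCCCTgccgc
RPL13A, chr19:49487593-49487622, plus strand: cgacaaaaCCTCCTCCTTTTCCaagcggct
RPL41, chr12:56116618-56116647, plus strand: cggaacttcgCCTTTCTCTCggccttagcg
RPLP0, chr12:120201097-120201126, minus strand: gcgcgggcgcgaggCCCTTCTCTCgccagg
RPLP1, chr15:69452803-69452832, plus strand: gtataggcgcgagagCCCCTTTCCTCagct
RPL11, the downstream of its starts, chr1:23691791-23691820, plus strand: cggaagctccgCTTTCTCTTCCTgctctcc
RPL3, chr22:39319609-39319638, minus strand: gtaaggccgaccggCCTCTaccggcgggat
RPL35, chr9:124861943-124861972, minus strand: agccccgcctaCTTCCTCTTTCCCTCggag
RPS28, chr19:8321481-8321510, plus strand: tccccgaagcacgtgaCTCCTCTCCgccag

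The second set pairs paralogs with the core genes they resemble.
RPL22, chr1:6199581-6199610, minus strand: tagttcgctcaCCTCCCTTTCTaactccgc
RPL22L1, chr3:170870181-170870210, minus strand: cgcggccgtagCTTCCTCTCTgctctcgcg
RPL26, chr17:8383179-8383208, minus strand: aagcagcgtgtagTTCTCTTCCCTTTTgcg
RPL26L1, the upstream of its starts, chr5:172958714-172958743, plus strand: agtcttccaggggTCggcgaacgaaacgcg
RPL26L1, the downstream of its starts, chr5:172958865-172958894, plus strand: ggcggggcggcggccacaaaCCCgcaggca
RPS27, chr1:153990747-153990776, plus strand: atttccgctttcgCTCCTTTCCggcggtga
RPS27L, chr15:63157463-63157492, minus strand: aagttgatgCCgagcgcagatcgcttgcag
RPL36A, chrX:101390996-101391025, plus strand: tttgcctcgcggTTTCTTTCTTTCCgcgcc
RPL36AL, chr14:49620612-49620641, minus strand: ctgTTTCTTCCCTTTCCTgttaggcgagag

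A run of at least 8 pyrimidines lay within 5 bases of 70.1% of the 77 start sites of the 62 core genes matched, and of 11.5% of 35116 RefSeq start sites of any gene. The median run was 11 bases in core genes and 4 bases over all starts. Of the 9 starts of 8 paralogs, 3 had such a run, namely those of RPL22L1, RPL36AL and RPS4Y1, whereas the runs of RPL26L1 and RPS27L were 2 or 3 bases long. The letters CCGGAAG, searched on both strands of the 300 bases from 250 before to 50 after the start, were found at 33.8% of core starts and 10.3% of all starts. The letters AAGATGG were found at 10.4% of core starts against 5.84% of all, CACGTG at 5.19% against 7.26%, and TATAAA at 6.49% against 11.5%. Over the starts of genes tested here, 11.7% had a run of at least 8 pyrimidines and 17.4% held CCGGAAG. The other letters searched, in the order above, were found at 7.28%, 9.48% and 5.79% of these starts. The last share lies below the 6.49% of core starts, whereas the 11.5% over all starts lies above it. The direction of that contrast therefore depends on the background. Matches to the first and the second of the 4 motifs can overlap, and all 4 searches describe the windows only.

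The deposited unit is FPKM, in which the fragments of a gene are divided by its exon length and by a value for the depth of the library. The divisors by which the authors scaled the libraries, which stand for depth here, were between 18068934 and 24673739. They followed median-of-ratios size factors, the median ratio of genes between libraries, within 0.41%, and are not shown to be counts of fragments. Values in the text follow the order control siRNA 1 and 2, then KIF26B siRNA 1 and 2. KIF26B itself was at 0.110, 0.205, 0.140 and 0.0307 FPKM, so that the library labelled KIF26B siRNA replicate 1 lay between the controls, and all directions below go by the labels. Mitochondrial transcripts made up 25.5%, 25.4%, 32.8% and 26.0% of summed FPKM. The median absolute log2 difference between the libraries of a group was 0.0733 for control siRNA and 0.280 for KIF26B siRNA over the 14523 genes tested. The epithelial markers KRT8, KRT18, KRT19, EPCAM and CDH1 were present in every library, VIL1 was at 0.0368 FPKM or lower, and PTPRC, DCN, CD68 and COL3A1 were at 0.0555 FPKM or lower in all of them. COL1A1 stood at 7.22, 7.05, 4.74 and 8.69 FPKM. Of these markers, KRT8 (−0.43 on the log2 scale) and KRT18 (−0.51) were lower in KIF26B siRNA at an unadjusted p below 0.05 in limma, and neither after adjustment.

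Of the 90 members, 83 had a mean of at least 1 FPKM and were tested. Their median level was 213.7 FPKM, and 64 members were at 100 FPKM or more. RPS2, a core protein near the mRNA entry of the small subunit, had the highest mean, at 1131, 1168, 1261 and 1239 FPKM. RPS12 followed at 1051, 1074, 1303 and 1269 FPKM, and RPL8 at 1025, 1065, 1062 and 1176 FPKM. These levels lie close together and the order of RPS2, RPS12 and RPL8 was not the same in every library. RPL13A, RPS18, RPL41, RPLP0, RPL19 and RPL7A were also among the highest 10, down to a mean of 573.4 FPKM for RPL7A. The highest 10 together held 34.7% to 36.4% of the FPKM of all members.

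**Figure D1:**
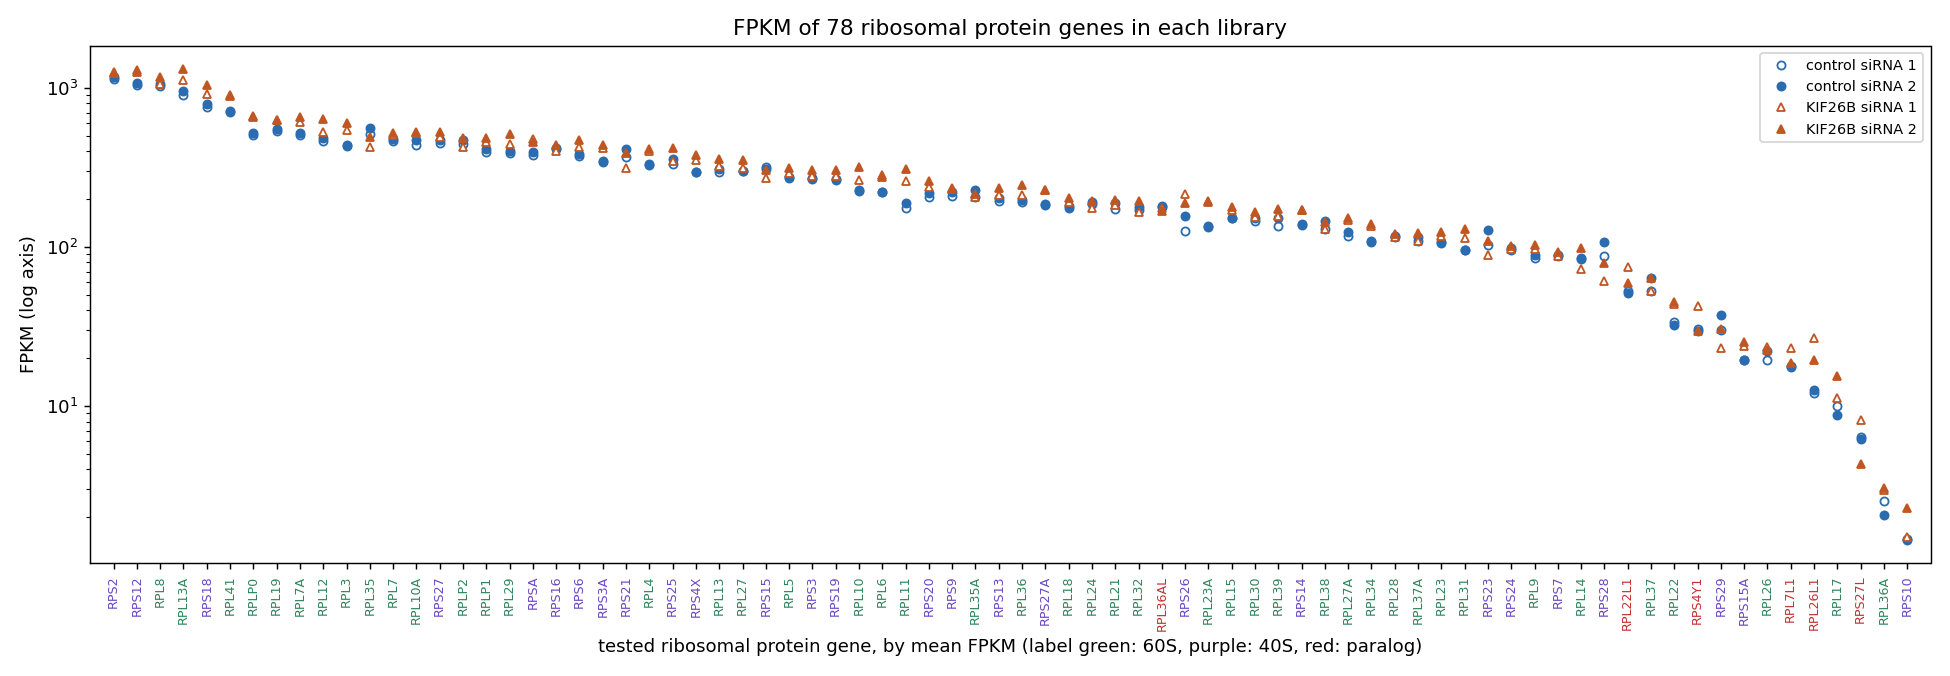
FPKM (log axis) of 78 of the 83 tested ribosomal protein genes, ordered by mean, with a circle for each control siRNA library and a triangle for each KIF26B siRNA library. RPS2 has the highest mean and RPS10 the lowest of those tested, and the triangles lie above the circles for 54 of the genes shown.

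The order depends on the length used. The length behind each FPKM was the union of all annotated exons, which for RPS29 came to 9845 bases, while its coding sequence is 168 bases. RPL41, which encodes the shortest protein of the family with 25 residues, was 6th by FPKM and 1st by reads per kilobase of coding sequence, and RPS12 went from 2nd to 18th. RPLP1, a stalk protein that recruits elongation factors, went from 18th to 2nd. Across the 77 core genes the Spearman correlation between both measures was 0.62, a description over genes of the same libraries. Levels of different members are therefore compared only with this limit, whereas the values of a single member in different libraries share 1 length.

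A few core members were listed far below the others. RPS10 was at 1.45, 1.46, 1.51 and 2.28 FPKM, from 67, 85, 76 and 97 reads. RPL36A was at 2.52, 2.08, 2.96 and 3.04 FPKM and RPL17 at 10.0, 8.81, 11.3 and 15.6 FPKM. Of their annotated exon bases (GRCh37), 31.5% of RPS10 overlap the readthrough gene RPS10-NUDT3 on the same strand, and 32.9% of RPL17 overlap RPL17-C18orf32 and small nucleolar RNA genes. The overlap was 8.40% for RPL36A, and its part in the low values was not tested. Of the 7 members not tested, RPL3L, the muscle form of RPL3, had 0.111, 0.250, 0.0679 and 0.181 FPKM. The testis-enriched paralogs RPL10L and RPL39L, and RPS4Y2, were listed at 0 in all 4 libraries. The elongation factor EEF1G was listed at 0 in all 4 libraries as well, and what a listed 0 reflects was not tested. The readthrough genes RPL36A-HNRNPH2, RPL17-C18orf32 and RPS10-NUDT3 had at most 0.147 FPKM.

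Between the siRNA groups, most ribosomal protein genes were somewhat higher in the libraries labelled KIF26B siRNA. In bulk RNA, a change in the share of cells in some state and a change in RNA per cell cannot be told apart. Both KIF26B siRNA libraries were above both controls for 58 of the 83 genes (24.9% of all genes tested) and below both for 4 genes (27.8% of all). The groups overlapped for the other 21 genes. The fitted difference was above 0 for 70 of the 83 genes, against 48.4% of all genes tested. TPM scaling sets every library to the same sum of FPKM. It left 55 of the 83 genes above 0, against 35.9% of all genes tested. As deposited, the median difference of the members was 0.19 on the log2(FPKM + 1) scale, against −0.01 over all genes. Single members ranged from −0.48 to 0.84. By limma at an unadjusted p below 0.05, 14 members were higher (7.74% of all genes tested) and 0 were lower (8.68% of all). No member passed after Benjamini-Hochberg adjustment over all genes tested (0.0% of all), with a smallest adjusted p of 0.242 in limma, and limma-voom on recovered reads also passed 0 members. No member exceeded 1 on the log2 scale, which 1.42% of all genes did at an unadjusted p below 0.05.

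That count rests on single libraries. Without control siRNA replicate 1 or control siRNA replicate 2 it was 0, whereas it was 42 without KIF26B siRNA replicate 1 and 27 without KIF26B siRNA replicate 2, each time with 1 library assumed to vary like those of the other group. The share of all genes called higher moved too, to 1.93%, 1.82%, 22.9% and 17.5% in the same order. The median was steadier, between 0.15 and 0.24 over these same 4 fits. TPM scaling moved the median of all genes to −0.12 and left 3 members higher and 1 lower (RPS28). The members' share of higher calls was then 3.61%, against 4.43% of all genes, whereas on the deposited scale it was 16.9% against 7.74%, so that the excess of calls over all genes was not seen under TPM scaling. The members' median was then 0.06, which is 0.18 above that of all genes, against 0.21 as deposited. Genes of like level also leaned upward. They were taken from all genes tested, not only nuclear or protein-coding ones, and included other TOP transcripts such as EEF1A1 and EEF2. The 95 other genes at or above the members' median level had a median of 0.16, 63 of them were above 0, and 19 were higher at the unadjusted threshold and 3 lower, so that the share called was not smaller than in the ribosomal protein genes.

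**Figure D2:**
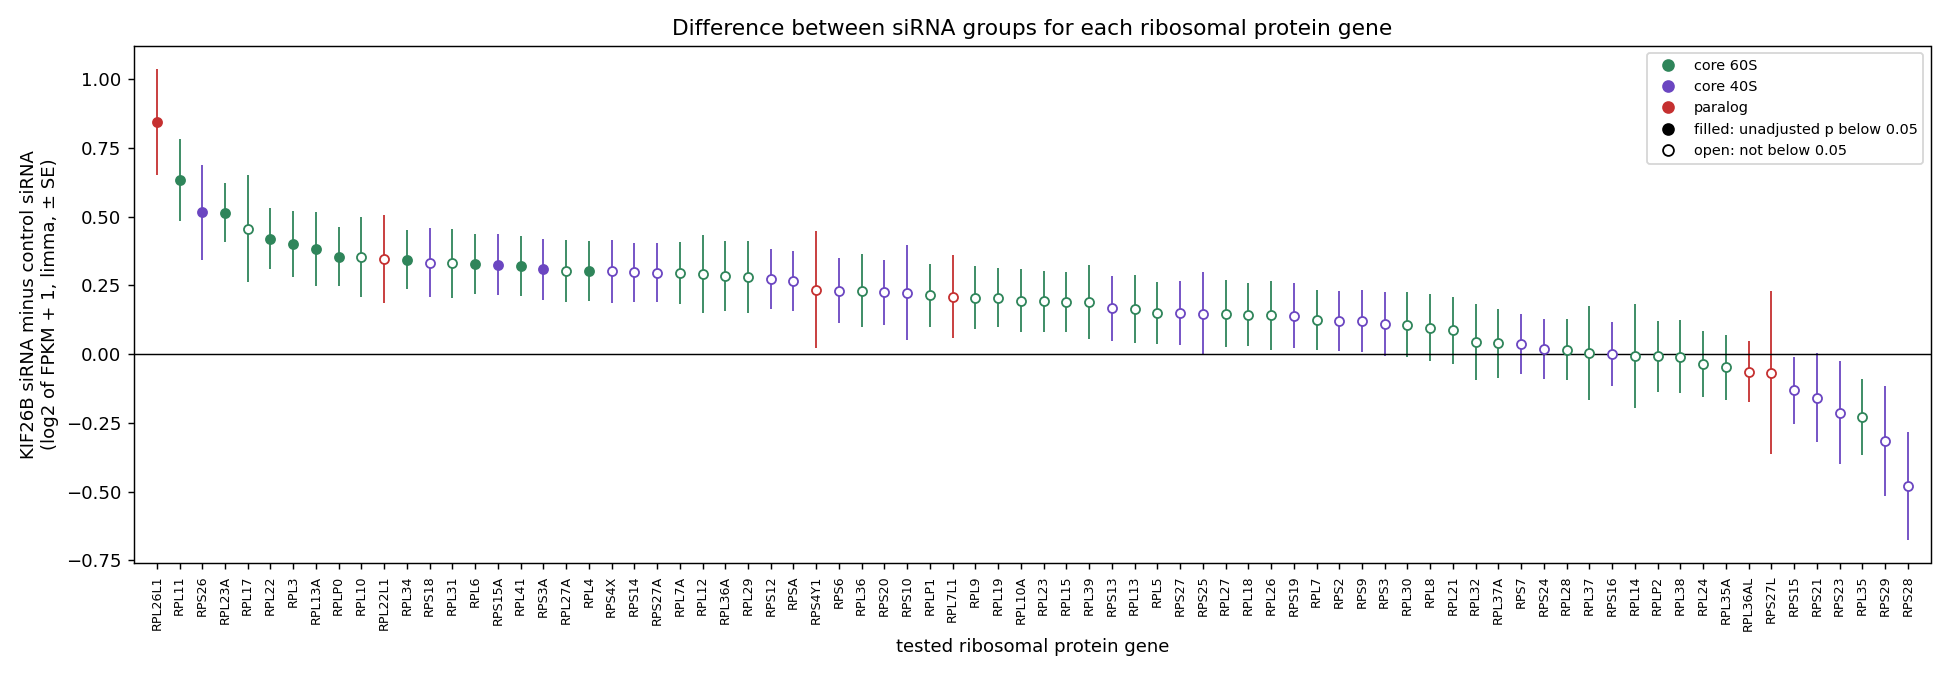
Difference between KIF26B siRNA and control siRNA (log2 of FPKM + 1, limma, bars are 1 SE) for 78 of the 83 tested genes in order of size, filled where the unadjusted p was below 0.05. It runs from 0.84 for RPL26L1 to −0.48 for RPS28, and 65 points lie above 0, against 48.4% of all genes tested. Under TPM scaling 51 of these genes lie above 0, against 35.9% of all genes tested. Each SE rests in part on a variance shared by all genes tested.

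In the large subunit, 10 of 46 core genes were higher at the unadjusted threshold and none lower, with a median of 0.19. The share higher was 21.7%, against 7.74% of all genes and 20% of the 95 other genes at or above the members' median level. RPL11, which joins the 5S RNA particle with RPL5 and can bind MDM2, was at 175.6, 189.5, 258.6 and 311.1 FPKM. The groups do not overlap, and the difference was 0.63 (SE 0.15, adjusted p = 0.248 in limma). Its partner RPL5 was at 270.8, 276.4, 294.1 and 313.7 FPKM, also without overlap, but with a difference of 0.15 (SE 0.11) that did not pass even without adjustment. RPL23A, which sits at the exit of the nascent chain tunnel, was at 135.8, 134.2, 193.1 and 193.7 FPKM. Within each group its libraries were nearly equal, with gaps of −0.0173 and 0.0044 on the log2 scale. The difference was 0.51 (SE 0.11, adjusted p = 0.242 in limma), an SE set mostly by the variance shared over genes.

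RPL22, an RNA-binding protein of the large subunit, was at 33.8, 32.3, 44.1 and 45.001 FPKM, a difference of 0.42 (SE 0.11). RPL3, close to the peptidyl transferase center, was at 429.4, 438.5, 544.0 and 603.8 FPKM, a difference of 0.40 (SE 0.12). RPL13A was at 905.0, 951.1, 1121 and 1307 FPKM, a difference of 0.38 (SE 0.14). In these 3 genes each KIF26B siRNA library exceeded each control. RPLP0, which anchors the stalk, had 509.4, 519.9, 663.1 and 653.9 FPKM, a difference of 0.36 (SE 0.11), and RPL41 had 708.6, 721.5, 885.8 and 900.2 FPKM, a difference of 0.32 (SE 0.11). Neither gene of the stalk proteins bound to RPLP0 passed the test. RPLP1 was at 395.5, 416.0, 454.8 and 486.8 FPKM, without overlap, a difference of 0.21 (SE 0.12). RPLP2 was at 446.7, 470.1, 425.3 and 488.0 FPKM, with overlapping groups and a difference of −0.01 (SE 0.13). RPL6, RPL34 and RPL4, named after their values were seen, completed the 10 with differences of 0.33, 0.34 and 0.30.

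RPL10, which is placed late in assembly and joins the subunit interface, was at 227.5, 223.7, 262.3 and 318.1 FPKM, a difference of 0.36 (SE 0.15, unadjusted p = 0.0713 in limma). RPL35, beside the tunnel exit like RPL23A, went the other way, at 510.9, 560.1, 425.5 and 490.1 FPKM. It was the only core gene of the large subunit with both KIF26B siRNA libraries below both controls, and its difference of −0.23 (SE 0.14) did not pass the test. RPL14, at 85.2, 84.6, 72.4 and 98.4 FPKM, had the controls between its KIF26B siRNA libraries. RPL7 (difference 0.12), RPL39 (0.19) and RPL26 (0.14) were above the controls in both libraries without passing the test. RPL8 had overlapping groups and a difference of 0.10. Under TPM scaling RPL7 and RPL8 were at −0.0063 and −0.034.

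In the small subunit, 3 of 31 core genes were higher at the unadjusted threshold and none lower, with a median of 0.17. The share higher was 9.68%, close to the 7.74% of all genes and below the 20% of the 95 other genes of like level. RPS26, a protein of the mRNA exit channel, was at 125.4, 157.4, 215.4 and 188.1 FPKM, a difference of 0.52 (SE 0.17, adjusted p = 0.289 in limma). Its control libraries already differed by 0.33 on the log2 scale, the widest such gap of all core members. RPS15A and RPS3A, named after their values were seen, had differences of 0.33 (SE 0.11) and 0.31 (SE 0.11). RPS18, in the head of the subunit, was at 758.6, 795.3, 922.3 and 1038 FPKM, a difference of 0.33 (SE 0.13, unadjusted p = 0.0568 in limma).

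RPS6, the substrate of the ribosomal protein S6 kinases, was at 374.2, 387.0, 426.5 and 468.2 FPKM, a difference of 0.23 (SE 0.12). RPS14 (difference 0.30, SE 0.11), which is haploinsufficient in a form of myelodysplastic syndrome, RPS4X (0.30, SE 0.11), RPS27A (0.30, SE 0.11), which is made as a fusion with ubiquitin, RPS12 (0.27, SE 0.11) and RPSA (0.27, SE 0.11), the laminin receptor homolog, were above both controls in both libraries and missed the threshold. RPS19, the gene most often mutated in Diamond-Blackfan anemia, was at 267.2, 262.0, 279.1 and 305.2 FPKM, a difference of 0.14 (SE 0.12). RPS3, at the mRNA entry, had a difference of 0.11 (SE 0.12), RPS2 of 0.12 (SE 0.11) and RPS27 of 0.15 (SE 0.12). None of these passed the test, and each again had both KIF26B siRNA libraries above both controls, although the fitted differences of RPS2 and RPS3 were below 0 under TPM scaling, at −0.01 and −0.02.

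Of the 6 core genes with the lowest differences, 5 encode proteins of the small subunit, and none of them passed the test. RPS28 was at 88.3, 108.1, 61.5 and 79.2 FPKM, without overlap, a difference of −0.48 (SE 0.20, unadjusted p = 0.0701, adjusted p = 0.334 in limma). RPS29, a zinc-binding protein of 56 residues, was at 30.2, 37.3, 23.3 and 30.6 FPKM, with overlapping groups and a difference of −0.32 (SE 0.20). RPS23, at the decoding center, was at 102.7, 128.0, 88.8 and 109.8 FPKM (−0.21, SE 0.19), and RPS21 at 370.7, 414.5, 315.5 and 391.1 FPKM (−0.16, SE 0.16). In these 4 genes the second library was the higher in each group, by 0.29, 0.30, 0.31 and 0.16 between the controls and by 0.36, 0.38, 0.30 and 0.31 between the KIF26B siRNA libraries, in the order named. RPS15 was below both controls at 318.9, 311.1, 272.0 and 303.9 FPKM, a difference of −0.13 (SE 0.12).

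Over the core genes, those encoding fewer than 130 residues had a median difference of 0.15 (22 genes, 7 below 0) and the longer ones 0.19 (55 genes, 4 below 0). The number of residues had a Spearman correlation of −0.36 with the difference between the control libraries and of 0.28 with the difference between the groups (77 genes that share the same 4 libraries, a description). Among other protein-coding genes at 20 FPKM or more, the medians were 0.00 for the 168 short ones and −0.04 for the 1812 longer ones. Splitting the core genes by their start sequence gave medians of 0.19 for the 51 genes with a run of 8 or more pyrimidines at one of their starts and 0.23 for the 11 without.

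The 6 paralogs tested were RPL22L1, RPL26L1, RPL36AL, RPL7L1, RPS27L and RPS4Y1. RPL26L1 had the largest difference of all members, with 12.1, 12.6, 27.0 and 19.5 FPKM (0.84, SE 0.19, adjusted p = 0.248 in limma). RPL26 itself was at 19.6, 22.2, 23.6 and 22.6 FPKM, and the ratio of RPL26L1 to RPL26 was 0.619, 0.565, 1.14 and 0.862. These ratios are per length of annotated exon, and both genes encode 145 residues, with fewer reads on RPL26L1 (277, 361, 671 and 410) than on RPL26 (966, 1379, 1269 and 1027) in each library. RPL22L1 was at 53.2, 51.6, 75.3 and 59.5 FPKM (0.35, SE 0.16), and its ratio to RPL22 was 1.58, 1.60, 1.71 and 1.32 per length of annotated exon. By recovered reads scaled by the authors' divisors (RPM), per kilobase of coding sequence, the order of the means turned, with 380.6 for RPL22L1 and 473.0 for RPL22. RPL22 and RPL22L1 were each above both controls in both KIF26B siRNA libraries, and their ratio had overlapping groups.

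RPS27L, a p53-inducible relative of RPS27, was at 6.44, 6.20, 8.15 and 4.32 FPKM, with the controls between the KIF26B siRNA libraries. RPS4Y1, the Y-linked form of RPS4X, was at 30.6, 29.7, 42.9 and 29.6 FPKM. RPL7L1, a relative of RPL7, was at 17.6, 17.9, 23.0 and 18.6 FPKM. RPL36AL was at 178.7, 182.4, 176.9 and 168.6 FPKM, below both controls with a difference of −0.06 (SE 0.11). It stood at 55.4 to 87.9 times the FPKM of RPL36A, whose annotated exons are longer. Most reads of RPL36A and its copies lay on pseudogenes, which are described below. With pseudogene reads added, RPL36A was at 98.02, 105.7, 98.77 and 114.2 RPM, against 133.3, 136.1, 131.95 and 125.8 RPM for RPL36AL. The part of reads divided among copies in the FPKM ratio was not tested. For none of RPS27L, RPS4Y1, RPL7L1 and RPL36AL did the difference between the groups pass the test.

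The paralogs and the core genes parted between the KIF26B siRNA libraries. All 6 paralogs were lower in replicate 2 than in replicate 1, by −0.78 for RPS27L, −0.52 for RPS4Y1, −0.45 for RPL26L1, −0.33 for RPL22L1, −0.30 for RPL7L1 and −0.07 for RPL36AL, while 69 of the 77 core genes were higher in replicate 2. The median was −0.39 for paralogs and 0.12 for core genes, and 47.3% of all genes tested were lower in replicate 2. For the 95 other genes at or above the members' median level it was 0.16. All 6 paralogs had a mean below that level, led by RPL36AL at 176.7 FPKM and RPL22L1 at 59.9 FPKM. The part of level in this pattern was not tested. Between the control libraries the medians of paralogs and core genes were −0.01 and 0.04. These differences compare single libraries and carry no test. KIF26B was lower in replicate 2 than in replicate 1 and the mitochondrial share was higher in replicate 1, and the part of either in this pattern was not tested.

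**Figure D3:**
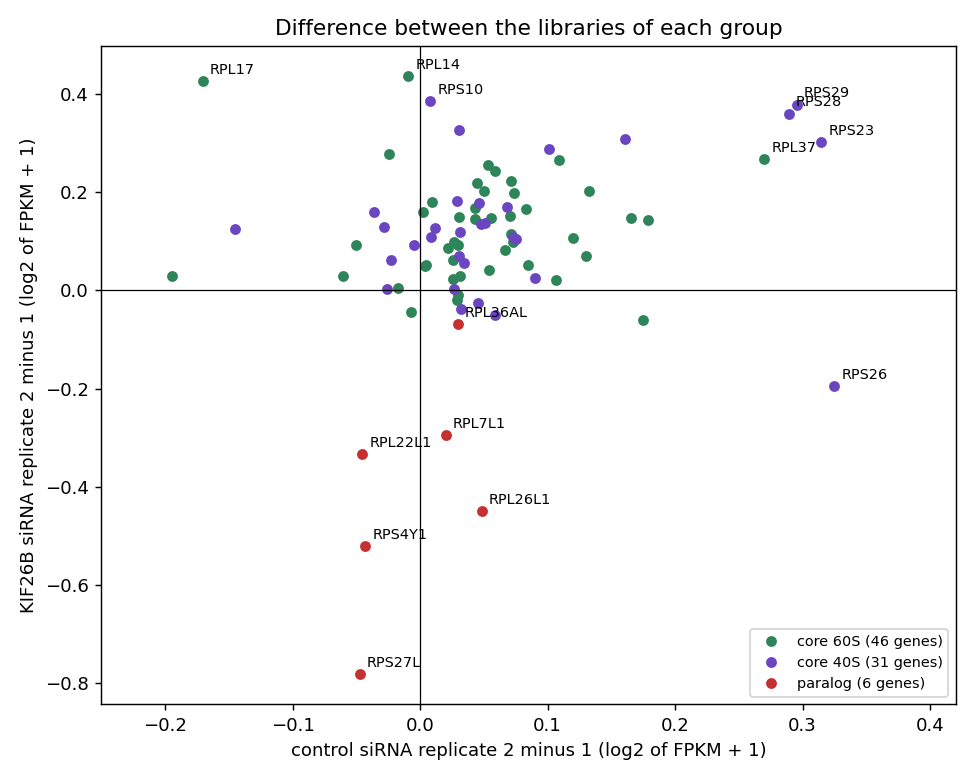
Difference between the libraries of each group (replicate 2 minus 1, log2 of FPKM + 1), control siRNA on the horizontal and KIF26B siRNA on the vertical axis, 1 point per tested gene. The 6 paralogs lie below 0 on the vertical axis and 69 of 77 core genes above it, while RPS23, RPS28 and RPS29 are high on both axes.

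Ribosomal protein genes have many processed pseudogenes, copies that can take or share the reads of the parent gene. The files list 1596 such pseudogenes, of which 146 were tested, and together they held 2.10% to 2.28% of summed FPKM. Reads on the pseudogenes named after a member exceeded 10% of the joint reads for 12 members and 50% for 4, namely RPS28, RPL17, RPS10 and RPL36A. For RPS28, recovered reads on the gene scaled by the divisors (RPM) were 187.0, 229.0, 130.2 and 167.8, and those on its pseudogenes were 442.9, 416.9, 508.5 and 539.4. The sum was 629.9, 645.9, 638.7 and 707.1. So the gene was lower in both KIF26B siRNA libraries and its pseudogenes were higher, and the difference of −0.49 on RPS28 reads alone became 0.08 for the sum. Nearly all of these copy reads lay on RPS28P7, listed at 2108, 1984, 2421 and 2568 FPKM, far above its parent.

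RPL17 turned the other way, from 0.50 on its own reads to −0.25 with its pseudogenes, and RPS10 from 0.35 to −0.23. RPL36A went from 0.39 to 0.06. For RPL17 and RPS10 the sums had overlapping groups, at 107.7, 130.5, 80.3 and 124.1 RPM for RPL17 and 12.9, 15.04, 9.55 and 14.8 for RPS10. The values of these 4 genes are uncertain for this reason, since how the authors' counting divided reads among copies is not stated. Over all 83 members the median was 0.19 on own reads and 0.18 with pseudogenes, and 70 and 69 of them were above 0. The 14 members that passed the unadjusted threshold include none of these 4, and RPL22, with 11.9%, had the largest share of reads on copies among them.

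**Figure D4:**
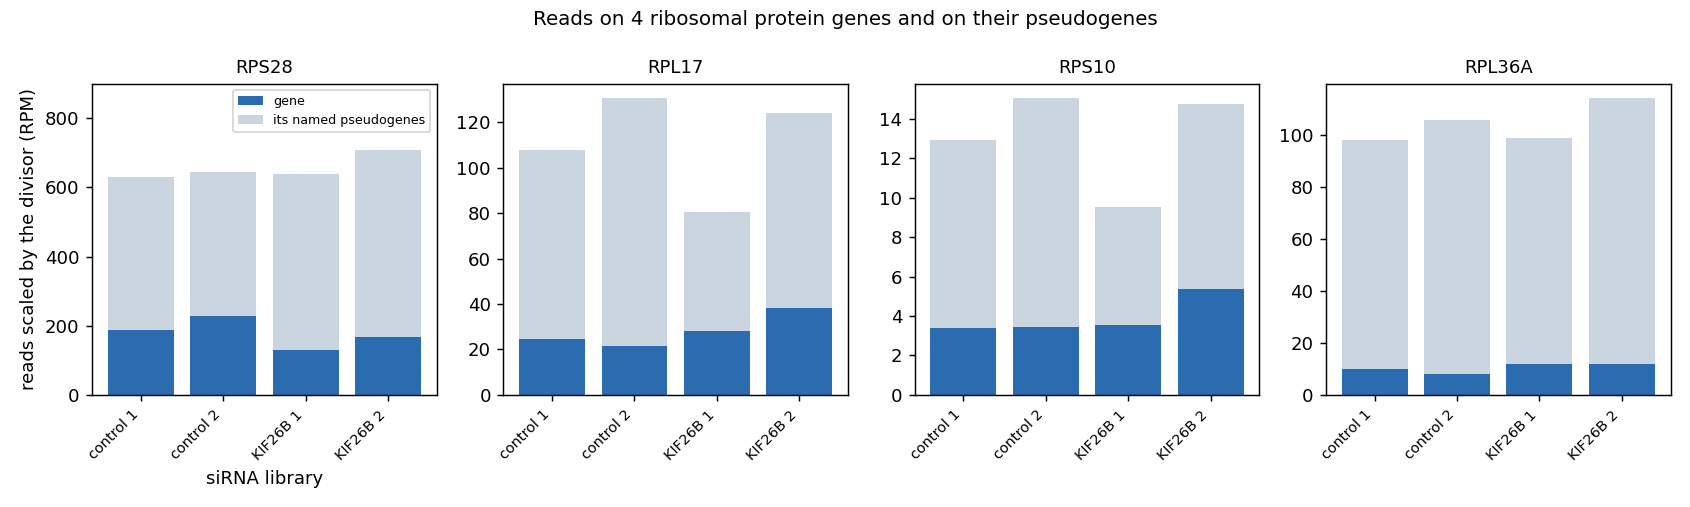
Recovered reads scaled by the authors' divisors (RPM) on RPS28, RPL17, RPS10 and RPL36A (blue) and on the pseudogenes named after them (grey) in each library. For RPS28 the blue part is lower in both KIF26B siRNA libraries while the whole bar stays between 629.9 and 707.1.

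Summed over all members, ribosomal protein transcripts had 22364, 23200, 25132 and 27080 FPKM. Their share of all FPKM was 7.22%, 7.39%, 7.37% and 7.92%, with overlapping groups. Without mitochondrial genes the share was 9.70%, 9.90%, 10.97% and 10.71%, which did not overlap. The group difference was 0.34 percentage points with and 1.04 percentage points without mitochondrial genes. With mitochondrial genes it was 0.0607 without KIF26B siRNA replicate 2 and 0.615 without KIF26B siRNA replicate 1, so that its size rests on single libraries, and with 2 libraries a group an exact two-sided permutation test cannot go below a p of 1 in 3. The summed FPKM of small subunit genes was 0.752, 0.752, 0.739 and 0.726 times that of large subunit genes, lower in both KIF26B siRNA libraries. These sums leave out pseudogenes. Those of RPS28 alone held a mean of 2271 FPKM, against small subunit sums of 9470 to 11266 FPKM. The part of reads divided among copies in this ratio was not tested. FPKM says nothing of the total amount of ribosomal protein mRNA.

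Ribosomal proteins whose symbols fall outside the rule were read beside the members. FAU (difference 0.22) and RACK1 (0.17) were each above both controls in both KIF26B siRNA libraries, and neither passed the test. The 24 other transcripts tested that are known to carry a TOP motif had a median of 0.22. Of these, 8 were higher at the unadjusted threshold (33.3%) and 0 lower. Of all genes tested, 7.74% were higher and 8.68% lower. Of the 95 other genes at or above the members' median level, EEF1A1 among them, 20% were higher. The 8 included SNHG8 (0.94) and GAS5 (0.76), non-coding hosts of small nucleolar RNAs, and the translation factors EIF3F (0.67) and EEF1A1 (0.65). EEF1A1, which brings aminoacyl-tRNA to the ribosome, was at 1545, 1544, 2310 and 2539 FPKM, above every ribosomal protein gene. This list shares members with the lists of translation factors, and TOP transcripts were chosen from general knowledge.

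Among the translation elongation and termination factors, 3 of 11 tested were higher (27.3%) and 1 lower (9.09%), with a median of −0.01. EEF1A1, EEF2 (0.49), which moves the ribosome along the mRNA, and EEF1D (0.32) were higher, and EIF5A2 (−0.84) was lower. Of 36 initiation factors, EIF3F and EIF4B (0.53) were higher and EIF5 (−0.49) and EIF2B5 (−0.37) lower, with a median of 0.07. This is 5.56% each way, below the 7.74% higher and 8.68% lower among all genes tested. The regulators of TOP translation had a median of 0.05 over 17 genes. EIF4EBP2 (−0.94), a repressor of cap-dependent initiation, and RPS6KB1 (−0.64), the kinase of RPS6, were lower. LAMTOR4 (0.43), part of the lysosomal anchor of mTORC1, was higher. The shares called in this list were 11.8% lower and 5.88% higher, against 8.68% and 7.74% of all genes.

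Dedicated chaperones of ribosomal proteins and assembly factors had a median of 0.04, and 2 of 12 were higher, RRP12 (0.81) and PDCD2L (0.47), the latter a relative of the RPS2 chaperone PDCD2. In the list of the 5S particle, MDM2 and p53, 1 of 8 was higher, the p53 target CDKN1A (0.48), while MDM2 was at 15.04, 14.2, 17.3 and 17.3 FPKM and did not pass. These calls are by the unadjusted threshold, and in none of these lists was an adjusted p below 0.05 in limma. The shares called higher were 16.7% of the chaperones and 12.5% of the 5S list, against 7.74% of all genes tested. For comparison, the proteins of the mitochondrial ribosome, encoded by 77 nuclear genes tested, had a median of −0.04, with 5 higher, among them MRPL24 (0.82) and MRPS34 (0.56), and 1 lower, MRPL39 (−0.42). Proteasome subunits had a median of 0.23 over 30 genes, with 2 higher, PSMC3 (0.79) and PSMB6 (0.44), and 0 lower. The shares called higher, 6.49% and 6.67%, were close to the 7.74% of all genes tested.

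**Figure D5:**
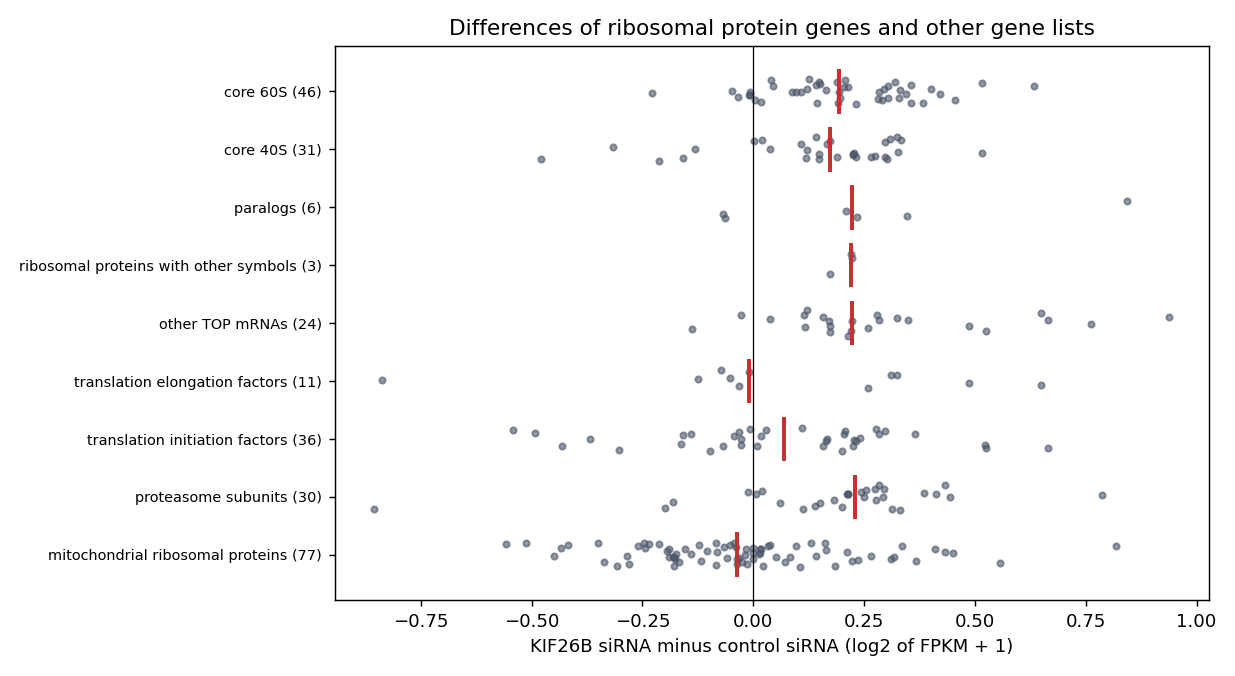
Difference between KIF26B siRNA and control siRNA (log2 of FPKM + 1) for single genes (points) of the ribosomal protein classes and other lists, with the median as a red bar and the number tested in parentheses. Medians are 0.19 for 60S, 0.17 for 40S, 0.22 for other TOP transcripts, 0.23 for proteasome subunits and −0.04 for mitochondrial ribosomal proteins.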

How the data were processed

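RNA sequencing of 4 HCT116 libraries (2 control siRNA, 2 labelled KIF26B siRNA, 48 h) was analysed. The authors purified poly(A) RNA, sequenced 150 bp paired ends and aligned them with HISAT2 2.0.5. The submitters' processing notes also name featureCounts 1.5.0-p3 and the build hg38, whereas the study's methods name hg19, and the files hold no coordinates. The authors deposited FPKM, a unit read from the values. Whole reads were recovered from the steps of the FPKM values for 94.6% of 34638 genes above 0 (tolerance 0.01 from a whole number). Symbols came from GENCODE for GRCh37 (56513 of 58735 identifiers).

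The 14523 genes whose mean FPKM reached 1 were tested with limma 3.58.1 (R 4.3.3) on log2(FPKM + 1), without covariates, two-sided, with 2 residual degrees of freedom and Benjamini-Hochberg adjustment over all of them. The variance of each gene was moderated toward a value shared by all genes, with 2.0 prior degrees of freedom. Each SE and p-value is therefore only in part that of the single gene. Fold changes on this scale understate those of low genes. DESeq2, the count test of the study's methods, was not used, since the deposited values are not counts. Alternatives were a replicate block, other scalings, filters and pseudocounts, a variance trend, leaving out each library and, added after seeing the data, limma-voom on recovered reads. Pseudogene reads were summed by symbol, a comparison also chosen after seeing the data.

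The members and gene lists were chosen with earlier results of these data known. Members named were the 10 highest and 5 lowest by level, the 8 largest differences in each direction, the 6 largest between the KIF26B siRNA libraries, those of known role or with a paralog, and up to 4 genes of each other list by size. Some genes that these rules would name are not reported here by name, and they remain in all counts and medians. Tables and plots were made in Python 3.11.15 with pandas 2.3.3, matplotlib 3.10.9 and numpy 2.4.6.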

Additional observations from a re-analysis of the deposited data

How the results depend on the processing

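Of the 14 members higher at the unadjusted threshold, 3 were still higher with the replicate number as a block, 7 at a pseudocount of 0.1, 3 under TPM scaling and 6 under TPM scaling without mitochondrial genes. As shares of members and of all genes, these were 3.61% and 5.95%, 8.43% and 7.53%, 3.61% and 4.43%, and 7.23% and 6.19%, near or below the share of all genes. Other settings kept the members' share above that of all genes. It was 31.3% against 6.33% without a filter and 28.9% against 7.87% with a variance trend. With limma-voom on recovered reads it was 28.9% against 7.82%. Median-of-ratios scaling gave 21 members higher (25.3% against 8.39%). A filter of at least 1 FPKM in every library also gave 21 (25.3% against 8.64%). The count was 26 without a filter, 24 with a variance trend and 24 with limma-voom on recovered reads, and it ran from 0 to 42 with 1 library left out. The count of lower members was 1 (RPS28) with the replicate block, under TPM scaling with or without mitochondrial genes and with limma-voom, and ran from 0 to 3 with 1 library left out. Members past the adjusted threshold ran from 0 to 5 with 1 library left out, the 5 (RPL3, RPL10, RPL11, RPL23A and RPL26L1) without KIF26B siRNA replicate 1, when 2507 of all genes passed. All 14 differences stayed above 0 in all 14 fits, the deposited scale included. The members' median was 0.062 under TPM scaling, and the difference in share of summed FPKM was 1.04 percentage points without mitochondrial genes. The sign of small differences turned under median-of-ratios scaling for RPL14 (0.0099) and RPLP2 (0.0087), and under TPM scaling for RPL7 (−0.0063), RPL8 (−0.034), RPS2 (−0.011) and RPS3 (−0.023). With 1 library left out, RPL14 ran from −0.226 to 0.211, RPLP2 from −0.107 to 0.0905, RPS27L from −0.458 to 0.324 and RPS4Y1 from −0.0253 to 0.495, the extremes being the fits without KIF26B siRNA replicate 1 or 2. With pseudogene reads summed, a comparison added after seeing the data, RPS28 (0.0754), RPL17 (−0.248) and RPS10 (−0.231) changed sign. The cause was not tested. Same-numbered libraries did not deviate together (correlation −0.003 over all genes), so the block pairs libraries by a number alone. With 2 libraries in a group, and KIF26B siRNA libraries that differ more from each other than the controls do, the test limits what can be called for single genes, and RPS10 rests on 67 to 97 reads.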
